A study of Homo sapiens with 12 samples.

Results

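The genes described here fold, modify, inspect, import or clear proteins of the endoplasmic reticulum (ER), or sense unfolded protein there, in LNCaP-Abl prostate cancer cells that expressed mutant or wild-type SPOP or carried a control vector. They were taken from a list of 37 gene symbols, matched to the gene symbols of the array platform. A probe was used when its detection p-value, which the deposited files give for each signal against background, was under 0.05 on at least 2 of the 12 arrays. Of the 37 listed genes, 36 had a named probe and 34 were measured, among 12227 genes tested in all. HERPUD1 had no probe under its symbol and is not analysed here, and the probes of PDIA3 and of ERN1, the sensor kinase IRE1, were detected on 0 arrays.

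The 12 arrays comprised 2 of cells with SPOP F102C, 2 with SPOP F133V, 2 with SPOP F133L, 3 with wild-type SPOP and 3 with control vector. LNCaP-Abl is an established cell line, a descendant of LNCaP that was adapted to growth without androgen. All 5 groups, the control vector included, were grown in charcoal-stripped serum, which is poor in steroid hormones, and were given doxycycline to switch on the construct. The series describes the replicates as biological. The labels do not say whether they came from separate transfections, whether a construct was carried by a clone or a pool, which promoter drove it or how much of the cells' own SPOP remained. The p-values therefore measure only how far these particular arrays spread, which may be technical.

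Secretory and membrane proteins enter the ER through the SEC61 channel, lose their signal peptides, and are folded by the Hsp70 protein HSPA5 with its J-protein partners, by the Hsp90 protein HSP90B1, by the lectins calnexin and calreticulin, and by oxidoreductases that form disulphide bonds. Proteins that fail to fold are passed back to the cytosol by ER-associated degradation. When unfolded protein builds up, the sensors IRE1, PERK and ATF6 start the unfolded protein response. IRE1 splices the mRNA of the transcription factor XBP1, ATF6 is cut to release a transcription factor, and together these raise chaperone and degradation genes, while PERK slows translation and raises ATF4. Luminal prostate cells secrete large amounts of protein, and the IRE1 and XBP1 arm is known to respond to androgen in prostate cancer cells. SPOP brings substrates to the ubiquitin ligase CUL3, and the mutated residues lie in the domain that binds them.

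The arrays detected 17485 to 19543 probes in mutant cells, 18906 to 19175 with wild-type SPOP and 19272 to 19677 with control vector, and the SPOP F133V arrays were lowest, at 17485 and 17864. The SPOP probe was detected on all 12 arrays at log2 levels of 9.90 to 10.27, with a difference of -0.14 between mutants and control vector (adjusted p = 0.346) and of -0.048 between wild-type SPOP and control vector (adjusted p = 0.841). The labels do not place it relative to the constructs, so it is no check of the labels or of the induction. The luminal prostate markers KRT8, KRT18, HOXB13, EPCAM and FOLH1 were detected on all 12 arrays. Their summed raw intensity, which also moves with the brightness of an array, was 4518 to 8433 in mutants, 8511 to 9516 with wild-type SPOP and 8485 to 10777 with control vector. In normalized values KRT8, KRT18 and HOXB13 were higher in mutants than with control vector by 0.60 ± 0.10 (SE; adjusted p = 0.00325), 0.69 ± 0.13 (SE; adjusted p = 0.00618) and 0.53 ± 0.12 (SE; adjusted p = 0.0136), and KRT8 was higher with wild-type SPOP than with control vector by 0.48 ± 0.12 (SE; adjusted p = 0.0350). Between mutants and wild-type SPOP the difference was 0.53 ± 0.13 (SE; adjusted p = 0.0242) for KRT18 and -0.48 ± 0.099 (SE; adjusted p = 0.0112) for FOLH1. The basal keratins KRT5 and KRT14 were detected on 0 arrays, as were 4 of 5 fibroblast markers, CD3E of the immune markers, and PECAM1 and CDH5 of the endothelial ones. VIM, which mesenchymal cells express strongly, was detected on all 12 arrays and was lower than in control vector cells, at -1.13 ± 0.092 (SE; adjusted p = 1.43e-05) in mutants and at -1.28 ± 0.11 (SE; adjusted p = 1.96e-05) with wild-type SPOP. The list that holds it, of which 3 of 4 genes had a probe, summed to 436 to 558 in mutants, 528 to 607 with wild-type SPOP and 896 to 1071 with control vector. The part of VIM, of the luminal markers and of the number of detected probes in the ER gene differences below was not tested, beyond the values given with each comparison. The RNA is from whole cultures, in which fewer cells that express a gene and less of its RNA per cell cannot be told apart.

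Levels are normalized log2 intensities, and a difference is the first group minus the second, in log2 units. Quantile normalization gives all arrays the same distribution, so a difference is relative to the other genes. A gene was called when limma's p-value, adjusted by Benjamini-Hochberg over all 12227 genes, was under 0.05. The mutants as a set are the mean of the 3 mutant groups. The comparisons share arrays: those against control vector use the same 3 control arrays, and those against wild-type SPOP use the same 3 wild-type SPOP arrays. The wild-type SPOP arrays also enter a comparison with control vector, and the mutant arrays enter several comparisons, so the results are not independent.

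Wild-type SPOP cells had lower expression of ER chaperones than control vector cells. Of the 34 genes, 10 were lower and 0 higher, which is 29.4% of them, against a background of 3.07% of all genes called lower and 3.08% called higher. The genes were chosen with earlier results of these data known, so a share above the background is a description and no test of the group. The 10 were the chaperones and co-chaperones HSP90B1, HYOU1, MANF, CRELD2, SDF2L1, DNAJC3 and DNAJC10, the oxidoreductase PDIA4, the signal peptidase subunit SEC11C and the translocon-associated protein SSR3, with differences of -0.39 to -0.55 (3 against 3 arrays). The median difference over the 34 genes was -0.26, against 0.0011 over all genes, and 28 of 34 were below 0. At an unadjusted p under 0.05, 17 genes were lower and 1, OS9, was higher. Counts at this unadjusted cut, here and below, have no share of all genes beside them. They are a description and show no excess over the background. The arrays of the 2 groups did not overlap for 15 genes, all lower with wild-type SPOP, where the background is 14% lower and 13.9% higher. With each array's detected-probe count as a covariate, 1 of the 34 genes was called, MANF. These counts were lower on every wild-type SPOP array than on every control vector array, so covariate and construct cannot be told apart here. Leaving out 1 control vector or wild-type SPOP array left 3 to 5 calls. Leaving out a SPOP F102C array, which bears on the shared variance alone, left 6, and MANF was called in all 12 of these fits, while PDIA4 and SDF2L1 lost their call in 7 of the 12, SSR3 in 8 and DNAJC10 in 9.

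The mutants also had lower chaperone expression than control vector cells. Of the 34 genes, 9 were lower and 0 higher, which is 26.5%, against a background of 6.62% of all genes lower and 5.59% higher. These were HSPA5, HSP90B1, HYOU1, MANF, DNAJC3, DNAJB11, PDIA4, and the degradation genes SEL1L and EDEM3, with differences of -0.31 to -0.76 (6 against 3 arrays). The median over the 34 genes was -0.099, against -0.011 over all genes, and 13 were lower and 0 higher at an unadjusted p under 0.05. Arrays did not overlap for 8 genes, all lower in mutants, against a background of 8.07% lower and 7.39% higher. Here too the genes were chosen with earlier results known, so these shares are a description and no test. With the detected-probe covariate limma called 0 genes, and without control vector array 1, 2 or 3 the calls were 5, 5 and 4. HSPA5, HSP90B1, MANF and HYOU1 were called in all 12 fits that left out an array, while DNAJB11 and EDEM3 lost their call in 7 of the 12 and SEL1L in 5.

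Between the mutants and wild-type SPOP few ER genes differed. Of the 34 genes 2 were lower in mutants, HSPA5 and SEL1L, and 2 higher, ERO1A and SEC11C, each pair 5.88% of the genes, against a background of 6.18% lower and 5.57% higher. The share of ER genes called thus lay near that of all genes. The median difference was 0.027 over the 34 genes and -0.015 over all genes. At an unadjusted p under 0.05, 3 were lower and 6 higher. Arrays did not overlap for 6 genes higher in mutants (ERO1A, SEC11C, XBP1, CRELD2, DNAJC10 and MANF; background 8.01%) and 2 lower (SEL1L and EDEM1; background 8.4%). The calls depended on scaling: with arrays brought to a common median over all probes (all-probe scaling), 14 were lower and 0 higher, and with a common median over the probes that every array detected (common-probe scaling), 0 were lower and 7 higher, while the median of all genes moved to -0.16 and 0.11. Leaving out wild-type SPOP array 1, 2 or 3 gave 1, 1 and 2 calls, without SPOP F133V array 1 they were 2, and with the detected-probe covariate 1.

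**Figure D1:**
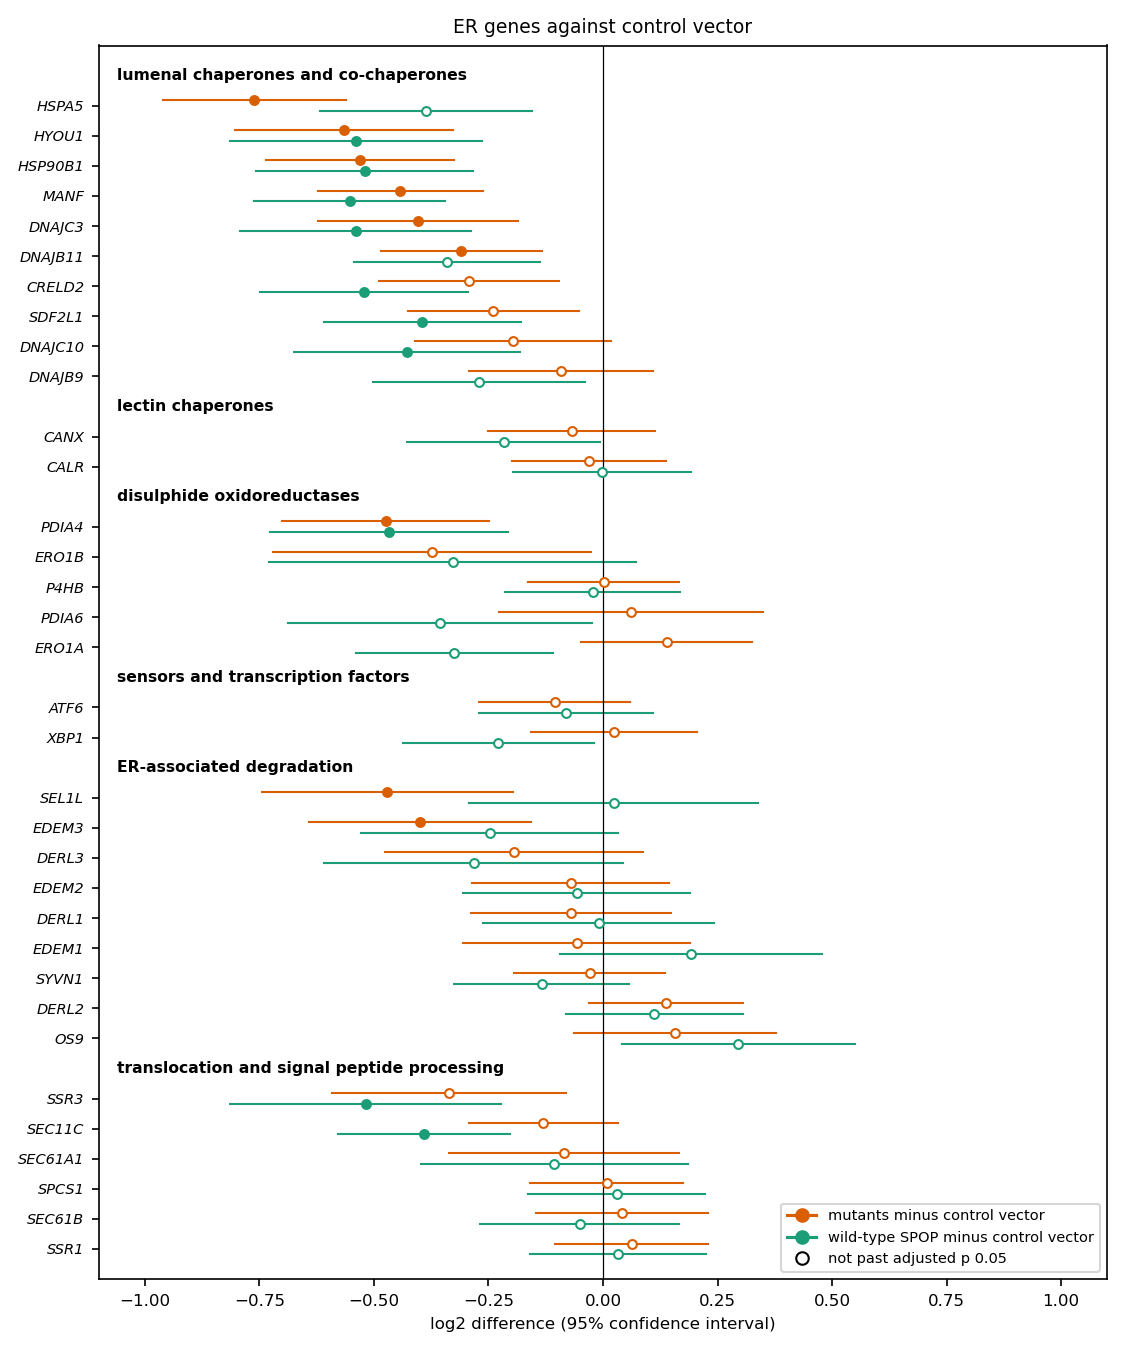
Log2 difference from control vector for the 34 measured genes, by role, for the mutants (upper marker, 6 arrays) and wild-type SPOP (lower marker, 3 arrays) against 3 control vector arrays; bars are 95% confidence intervals and filled markers pass an adjusted p of 0.05. All 10 lumenal chaperones and co-chaperones lie below 0 in both comparisons, while CALR and P4HB lie close to 0.

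XBP1 is known to bind the letters TGACGTGG, and the promoters that hold them are shown here because their genes were all called lower in wild-type SPOP cells. Both strands were searched in the window that a RefSeq-derived table (GRCh38.p14) gives around each gene's start. The letters were found in 3 of the 33 listed genes with a window, against 0.927% of all 27305 genes with a window. The 3 were HYOU1 (chr11:119057346-119057433, minus strand), DNAJC10 (chr2:182716092-182716179, plus strand) and SSR3 (chr3:156554126-156554206, minus strand). Each stretch runs 5′ to 3′ on the gene's strand, with the match in capitals, which reads CCACGTCA where it lies on the opposite strand.
HYOU1: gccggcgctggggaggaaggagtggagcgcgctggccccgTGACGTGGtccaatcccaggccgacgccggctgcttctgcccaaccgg
DNAJC10: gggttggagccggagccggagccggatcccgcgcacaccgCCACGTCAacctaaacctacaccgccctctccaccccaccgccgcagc
SSR3: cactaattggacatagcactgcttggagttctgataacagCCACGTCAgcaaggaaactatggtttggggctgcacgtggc
All 3 genes were lower with wild-type SPOP than with control vector, as were 7 of the 28 other measured genes with a window, and in mutants 1 of the 3 and 8 of the 28 were lower. The motif was kept with these calls known, and longer ER stress response elements, also searched, are not reported here, so nothing is read from this split. A match describes the letters and does not show a bound site.

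Among the 10 lumenal chaperones and co-chaperones, 7 were lower with wild-type SPOP than with control vector and 6 were lower in mutants, with median differences of -0.47 and -0.36. All 10 were below 0 in both comparisons, also with the 4 other scalings tried. In the wild-type comparison no array overlapped for any of them. Of all genes, 3.07% were called lower with wild-type SPOP and 6.62% in mutants, both against control vector. In the wild-type comparison 14% of all genes were lower without overlap and 13.9% higher. The same shares are the background for the counts of the other roles below. HSPA5, known as BiP, is the ER Hsp70 and the master chaperone that also holds the sensors inactive. Its probe (ILMN_1773865) gave log2 levels of 6.17 and 6.11 with SPOP F102C, 6.01 and 5.99 with SPOP F133V, 6.44 and 6.73 with SPOP F133L, 6.57, 6.65 and 6.63 with wild-type SPOP, and 6.85, 7.16 and 6.99 with control vector. The probe was dim, with raw intensities of 129 to 264, but detected on all 12 arrays. The control vector arrays were highest, the SPOP F102C and SPOP F133V arrays lowest, and the SPOP F133L and wild-type SPOP arrays overlapped between them. HSPA5 was lower in mutants than with control vector, at -0.76 ± 0.092 (SE; adjusted p = 0.000299) and lower than with wild-type SPOP, at -0.37 ± 0.092 (SE; adjusted p = 0.0230), while wild-type SPOP against control vector gave -0.39 ± 0.11 (SE; adjusted p = 0.0540) and did not pass. The difference between mutants and control vector was -0.25 in the authors' deposited log2 values and stayed called (adjusted p = 0.000488), and that between mutants and wild-type SPOP was -0.11 there (adjusted p = 0.0617) and -0.045 with common-probe scaling (adjusted p = 0.641).

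HSP90B1, also called GRP94, is the ER Hsp90, and its probe (ILMN_2096116) was among the brightest of the group, at 12.87 and 12.89 with SPOP F102C, 12.75 and 12.74 with SPOP F133V, 12.53 and 12.87 with SPOP F133L, 12.65, 12.90 and 12.81 with wild-type SPOP, and 13.39, 13.31 and 13.22 with control vector. All 3 control vector arrays lay above the other 9. HSP90B1 was lower, at -0.53 ± 0.094 (SE; adjusted p = 0.00411) in mutants and by -0.52 ± 0.11 (SE; adjusted p = 0.0157) with wild-type SPOP, and the mutants differed from wild-type SPOP by -0.011, with a 95% interval of -0.22 to 0.19. HYOU1, or GRP170, is the large Hsp70-like protein that exchanges nucleotide on HSPA5. It stood at 7.81 and 7.98 with SPOP F102C, 8.11 and 8.16 with SPOP F133V, 7.72 and 8.16 with SPOP F133L, 8.18, 7.86 and 8.01 with wild-type SPOP, and 8.50, 8.64 and 8.52 with control vector (ILMN_2141790), again with the 3 control arrays above the other 9. It was lower than with control vector, at -0.56 ± 0.11 (SE; adjusted p = 0.00649) in mutants and at -0.54 ± 0.13 (SE; adjusted p = 0.0272) with wild-type SPOP. Its second probe gave -0.37 in mutants (adjusted p = 0.0475 over all 23133 probes) and -0.46 with wild-type SPOP (adjusted p = 0.0566). Over all probes the brighter probe stood at an adjusted p of 0.0461 with wild-type SPOP, so both lay near the threshold. The mutants and wild-type SPOP differed by -0.026, with an interval of -0.26 to 0.21.

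MANF is a small secreted and ER-resident protein that binds HSPA5 and is strongly induced by ER stress. Its probe (ILMN_2183510) read 12.32 and 12.21 with SPOP F102C, 12.32 and 12.28 with SPOP F133V, 12.23 and 12.33 with SPOP F133L, 12.19, 12.15 and 12.18 with wild-type SPOP, and 12.89, 12.67 and 12.61 with control vector. The 3 control arrays were highest, the 3 wild-type SPOP arrays lowest, and the 6 mutant arrays lay between without overlap. MANF was lower, at -0.44 ± 0.082 (SE; adjusted p = 0.00539) in mutants and at -0.55 ± 0.095 (SE; adjusted p = 0.00555) with wild-type SPOP, and it kept its wild-type call in all 11 alternatives and in all 12 fits without an array. The mutants exceeded wild-type SPOP by 0.11 (adjusted p = 0.425), which did not pass. CRELD2, another ER stress-induced protein with a CXXC motif, showed the same order of groups. It was at 10.26 and 10.44 with SPOP F102C, 10.41 and 10.19 with SPOP F133V, 10.24 and 10.46 with SPOP F133L, 10.07, 10.15 and 10.09 with wild-type SPOP, and 10.63, 10.72 and 10.52 with control vector (ILMN_1748707). CRELD2 was lower with wild-type SPOP than with control vector, at -0.52 ± 0.10 (SE; adjusted p = 0.0129), and the mutants were at -0.29 (adjusted p = 0.0561) against control vector and 0.23 (adjusted p = 0.123) against wild-type SPOP. SDF2L1, a partner of HSPA5 and its J-proteins, gave 11.39 and 11.31 with SPOP F102C, 11.51 and 11.51 with SPOP F133V, 11.44 and 11.32 with SPOP F133L, 11.16, 11.32 and 11.29 with wild-type SPOP, and 11.65, 11.80 and 11.51 with control vector (ILMN_1749213). All 3 wild-type SPOP arrays lay below all 3 control arrays, and the mutant arrays overlapped with both groups. SDF2L1 was lower with wild-type SPOP, at -0.39 ± 0.098 (SE; adjusted p = 0.0365), and the mutants were at -0.24 (adjusted p = 0.0907) against control vector.

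The J-proteins, which bring substrates to HSPA5 and start its ATPase cycle, were all below 0 against control vector, and some of them passed. DNAJC3, or P58IPK, which also inhibits PERK, was at 6.94 and 7.12 with SPOP F102C, 6.87 and 7.30 with SPOP F133V, 6.76 and 6.79 with SPOP F133L, 6.75, 6.82 and 6.92 with wild-type SPOP, and 7.28, 7.39 and 7.43 with control vector (ILMN_1659843). The wild-type SPOP arrays lay below the control arrays, and 1 SPOP F133V array reached into the control range. It was lower, at -0.40 ± 0.10 (SE; adjusted p = 0.0223) in mutants and at -0.54 ± 0.12 (SE; adjusted p = 0.0176) with wild-type SPOP, though the wild-type difference was -0.22 in the authors' deposited log2 values. DNAJB11, or ERdj3, was at 11.38 and 11.33 with SPOP F102C, 11.22 and 11.23 with SPOP F133V, 11.52 and 11.35 with SPOP F133L, 11.24, 11.45 and 11.22 with wild-type SPOP, and 11.61, 11.68 and 11.65 with control vector (ILMN_1753243), with the control arrays above the other 9. It was lower in mutants, at -0.31 ± 0.080 (SE; adjusted p = 0.0279), and wild-type SPOP gave -0.34 ± 0.093 (SE; adjusted p = 0.0527) and did not pass. DNAJC10, or ERdj5, a J-protein that reduces disulphide bonds, was at 9.63 and 9.80 with SPOP F102C, 9.62 and 9.59 with SPOP F133V, 9.59 and 9.82 with SPOP F133L, 9.49, 9.37 and 9.48 with wild-type SPOP, and 9.65, 9.98 and 9.99 with control vector (ILMN_2151541). The wild-type SPOP arrays were lowest and overlapped with neither other set, while mutant and control arrays overlapped. DNAJC10 was lower with wild-type SPOP, at -0.43 ± 0.11 (SE; adjusted p = 0.0454), and its second probe gave -0.36. Adjusted over all probes, neither passed, at 0.0788 for the first probe and 0.130 for the second. The mutants were at -0.20 (adjusted p = 0.225) against control vector. DNAJB9, or ERdj4, was at -0.092 (adjusted p = 0.577) in mutants and -0.27 (adjusted p = 0.164) with wild-type SPOP, both against control vector.

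**Figure D2:**
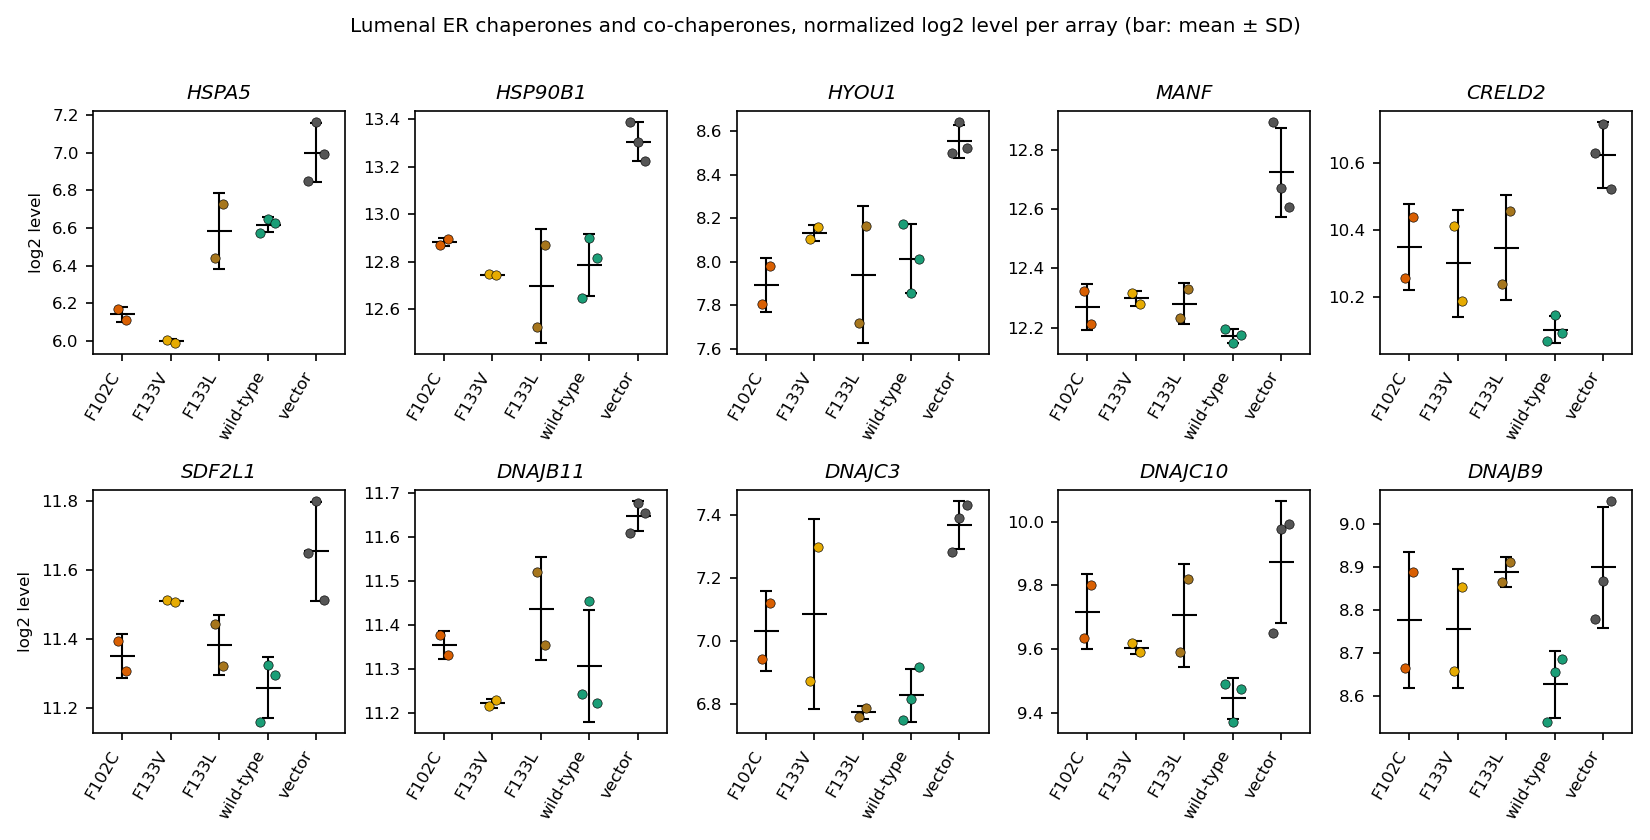
Normalized log2 level of the 10 lumenal chaperones and co-chaperones on each of the 12 arrays, by construct, with group mean and SD (n = 2, 2, 2, 3 and 3); vertical scales differ between genes. For HSP90B1, HYOU1, MANF, CRELD2 and DNAJB11 all 9 SPOP arrays lie below the 3 control vector arrays, and HSPA5 is lowest with SPOP F133V.

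The lectin chaperones that hold glycoproteins during folding did not pass in any comparison. CALR, calreticulin, differed from control vector by -0.031 in mutants, with a 95% interval of -0.20 to 0.14, and by -0.0023 with wild-type SPOP, with an interval of -0.20 to 0.19. CANX, calnexin, was at -0.068 (adjusted p = 0.657) in mutants and -0.22 (adjusted p = 0.222) with wild-type SPOP, and its second probe at 0.080 and -0.21. At an unadjusted p under 0.05, 1 of the 2 lectins was lower with wild-type SPOP and 0 in mutants.

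Of the 5 oxidoreductases measured, 1 was lower in each comparison with control vector, PDIA4, with 2 lower at an unadjusted p under 0.05 in mutants and 3 with wild-type SPOP. PDIA4, or ERp72, a disulphide isomerase, was at 7.64 and 7.68 with SPOP F102C, 7.20 and 7.40 with SPOP F133V, 7.62 and 7.79 with SPOP F133L, 7.64, 7.51 and 7.54 with wild-type SPOP, and 8.24, 7.80 and 8.05 with control vector (ILMN_1815261). All 9 SPOP arrays were below the 3 control arrays, though SPOP F133L array 2, at 7.79, and the lowest control array, at 7.80, nearly met. PDIA4 was lower, at -0.47 ± 0.10 (SE; adjusted p = 0.0118) in mutants and at -0.47 ± 0.12 (SE; adjusted p = 0.0394) with wild-type SPOP, and the wild-type difference was -0.25 in the authors' deposited log2 values, where it was also called. ERO1A is the oxidase that recharges the disulphide isomerases and is known to respond to hypoxia. It was at 7.61 and 7.61 with SPOP F102C, 7.61 and 7.56 with SPOP F133V, 8.02 and 7.79 with SPOP F133L, 7.27, 7.23 and 7.21 with wild-type SPOP, and 7.72, 7.47 and 7.49 with control vector (ILMN_1744963). The 3 wild-type SPOP arrays were lowest and the SPOP F133L arrays highest, and the other mutant arrays lay within the control range. ERO1A was higher in mutants than with wild-type SPOP by 0.46 ± 0.085 (SE; adjusted p = 0.00584), while it was at -0.32 (adjusted p = 0.0763) for wild-type SPOP and 0.14 (adjusted p = 0.332) for mutants against control vector. That call held without each of the 12 arrays, and was lost with all-probe scaling, where the difference was 0.063 (adjusted p = 0.578), and with the detected-probe covariate, at 0.43 (adjusted p = 0.107).

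ERO1B, the second ER oxidase, was detected on 10 of 12 arrays and on neither SPOP F133V array, so only a bound is known there. Its mean was at least 1.59-fold higher with SPOP F102C, 1.92-fold with SPOP F133L, 1.47-fold with wild-type SPOP and 1.84-fold with control vector than with SPOP F133V. The test among the mutants (adjusted p = 0.149) and that of SPOP F133V against wild-type SPOP (adjusted p = 0.0798) did not pass. Its second probe, detected on 9 arrays, did not show this: it gave 0.048 for SPOP F133V against wild-type SPOP (adjusted p = 0.918 over all probes) and 0.12 for mutants against control vector, where the brighter probe gave -0.37. These bounds, and the one for SEL1L, set the mean of the brighter group against the lowest detected signal on each dim array. PDIA6, the disulphide isomerase P5, was at 0.42 (adjusted p = 0.0618) in mutants against wild-type SPOP, 0.062 (adjusted p = 0.816) in mutants against control vector and -0.36 (adjusted p = 0.205) with wild-type SPOP against control vector. P4HB, or PDI, the most studied member of the family, differed by 0.0017 in mutants, with a 95% interval of -0.16 to 0.17, and by -0.022 with wild-type SPOP, with an interval of -0.21 to 0.17.

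The 2 sensors and transcription factors that could be measured passed in no comparison of the sets. XBP1 encodes the factor that IRE1 activates by splicing, which this probe does not report, and its mRNA is itself raised by ATF6. It was at 11.53 and 11.55 with SPOP F102C, 11.44 and 11.43 with SPOP F133V, 11.43 and 11.49 with SPOP F133L, 11.15, 11.38 and 11.15 with wild-type SPOP, and 11.34, 11.48 and 11.54 with control vector (ILMN_1809433). All 6 mutant arrays were above all 3 wild-type SPOP arrays, by 11.43 against 11.38 at the closest, and the control arrays overlapped with both. XBP1 was at 0.25 (adjusted p = 0.0708) for mutants against wild-type SPOP, 0.024 (adjusted p = 0.894) for mutants against control vector and -0.23 (adjusted p = 0.196) with wild-type SPOP against control vector. Its second probe gave 0.077, -0.070 and -0.15 in the same comparisons. ATF6, the membrane-bound sensor, was at 9.19 and 9.31 with SPOP F102C, 9.31 and 9.24 with SPOP F133V, 9.34 and 9.49 with SPOP F133L, 9.31, 9.29 and 9.41 with wild-type SPOP, and 9.44, 9.44 and 9.37 with control vector (ILMN_1703471), and the SPOP F102C and SPOP F133V arrays lay below the control arrays, while the other groups overlapped with them. It differed from control vector by -0.11 in mutants, with an interval of -0.27 to 0.059, and by -0.081 with wild-type SPOP, with an interval of -0.27 to 0.11.

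Of the 9 genes of ER-associated degradation, limma called 0 with wild-type SPOP against control vector, where 0 were lower and 1 higher at an unadjusted p under 0.05, 2 lower in mutants against control vector, and 1 lower in mutants against wild-type SPOP. Their median differences were -0.0098, -0.069 and -0.059. SEL1L is the scaffold that joins the substrate receptors to the ubiquitin ligase SYVN1. Its probe (ILMN_1726496) was near the detection limit: it was detected on 1 of 2 SPOP F102C, 0 of 2 SPOP F133V, 2 of 2 SPOP F133L, 3 of 3 wild-type SPOP and 3 of 3 control vector arrays. The levels were 5.44 and 4.85 with SPOP F102C, 4.65 and 4.79 with SPOP F133V, 5.03 and 5.18 with SPOP F133L, 5.47, 5.51 and 5.47 with wild-type SPOP, and 5.68, 5.34 and 5.37 with control vector. All 6 mutant arrays were below the 3 wild-type SPOP arrays, and SPOP F102C array 1 lay within the control range. SEL1L was thus undetected on 3 of the 6 mutant arrays, so the fitted sizes rest in part on values at background and are not measured sizes, and its calls are counted above with that limit. The fitted difference was -0.49 ± 0.13 (SE; adjusted p = 0.0269) between mutants and wild-type SPOP and -0.47 ± 0.13 (SE; adjusted p = 0.0313) between mutants and control vector. For SPOP F133V, where only a bound is known, wild-type SPOP was at least 1.31-fold and control vector at least 1.29-fold higher. SEL1L turned direction with common-probe scaling, to 0.075 against wild-type SPOP and 0.15 against control vector, and was not called in the authors' deposited log2 values, at -0.090 and -0.087.

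EDEM3, a mannosidase-like protein that marks misfolded glycoproteins, was at 7.82 and 8.22 with SPOP F102C, 8.02 and 8.14 with SPOP F133V, 8.05 and 8.18 with SPOP F133L, 8.42, 8.06 and 8.19 with wild-type SPOP, and 8.42, 8.39 and 8.60 with control vector (ILMN_2065299). All 6 mutant arrays were below the 3 control arrays, with wild-type SPOP arrays in both ranges. EDEM3 was lower in mutants than with control vector, at -0.40 ± 0.11 (SE; adjusted p = 0.0371), and wild-type SPOP was at -0.25 (adjusted p = 0.298). Its relatives EDEM1 and EDEM2 did not pass in any comparison. EDEM1 was at -0.25 (adjusted p = 0.182) for mutants against wild-type SPOP, with all mutant arrays below all wild-type SPOP arrays. SYVN1, or HRD1, the ubiquitin ligase itself, differed from control vector by -0.029 in mutants (-0.19 to 0.14) and by -0.13 with wild-type SPOP (-0.32 to 0.057). OS9, a lectin that delivers glycoproteins to SEL1L, was at 0.30 (adjusted p = 0.167) with wild-type SPOP against control vector, the largest positive difference among the 34 genes in that comparison. Of the derlins, membrane proteins of the export channel, DERL1 and DERL2 were detected on all 12 arrays and DERL3 on 4, and none passed. The probes of DERL2 disagreed, at 0.11 and -0.28 for wild-type SPOP against control vector.

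Of the 6 genes of translocation and signal peptide processing, 2 were lower with wild-type SPOP than with control vector and limma called 0 in mutants against control vector, where 1 was lower at an unadjusted p under 0.05. SEC11C is a catalytic subunit of the signal peptidase, and was at 12.17 and 12.05 with SPOP F102C, 12.16 and 12.12 with SPOP F133V, 12.15 and 12.27 with SPOP F133L, 11.87, 11.96 and 11.84 with wild-type SPOP, and 12.23, 12.29 and 12.33 with control vector (ILMN_1701681). The 3 wild-type SPOP arrays were below all other arrays, and the mutant and control arrays overlapped. SEC11C was lower with wild-type SPOP than with control vector, at -0.39 ± 0.086 (SE; adjusted p = 0.0202), higher in mutants than with wild-type SPOP by 0.26 ± 0.074 (SE; adjusted p = 0.0431), and at -0.13 (adjusted p = 0.298) for mutants against control vector. The mutant call held without 1 of the 12 arrays in turn, SPOP F133L array 1, and was lost without each of the others, and with all-probe scaling the difference was -0.012. SSR3, the gamma subunit of the translocon-associated complex, was at 6.53 and 6.60 with SPOP F102C, 6.44 and 6.79 with SPOP F133V, 6.41 and 6.44 with SPOP F133L, 6.56, 6.19 and 6.31 with wild-type SPOP, and 7.06, 6.65 and 6.90 with control vector (ILMN_1806906). The wild-type SPOP arrays were below the control arrays, and mutant arrays overlapped with both. SSR3 was lower with wild-type SPOP, at -0.52 ± 0.14 (SE; adjusted p = 0.0437), while the mutants gave -0.34 (adjusted p = 0.0852) and did not pass. The wild-type difference was -0.17 in the authors' deposited log2 values (adjusted p = 0.0417), and the call was lost in 6 of 11 alternatives and in 8 of the 12 fits without an array (adjusted p up to 0.155). SPCS1, SSR1, SEC61A1 and SEC61B, the last 2 being channel subunits, passed in no comparison. Their differences from control vector ran from -0.11 to 0.062.

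**Figure D3:**
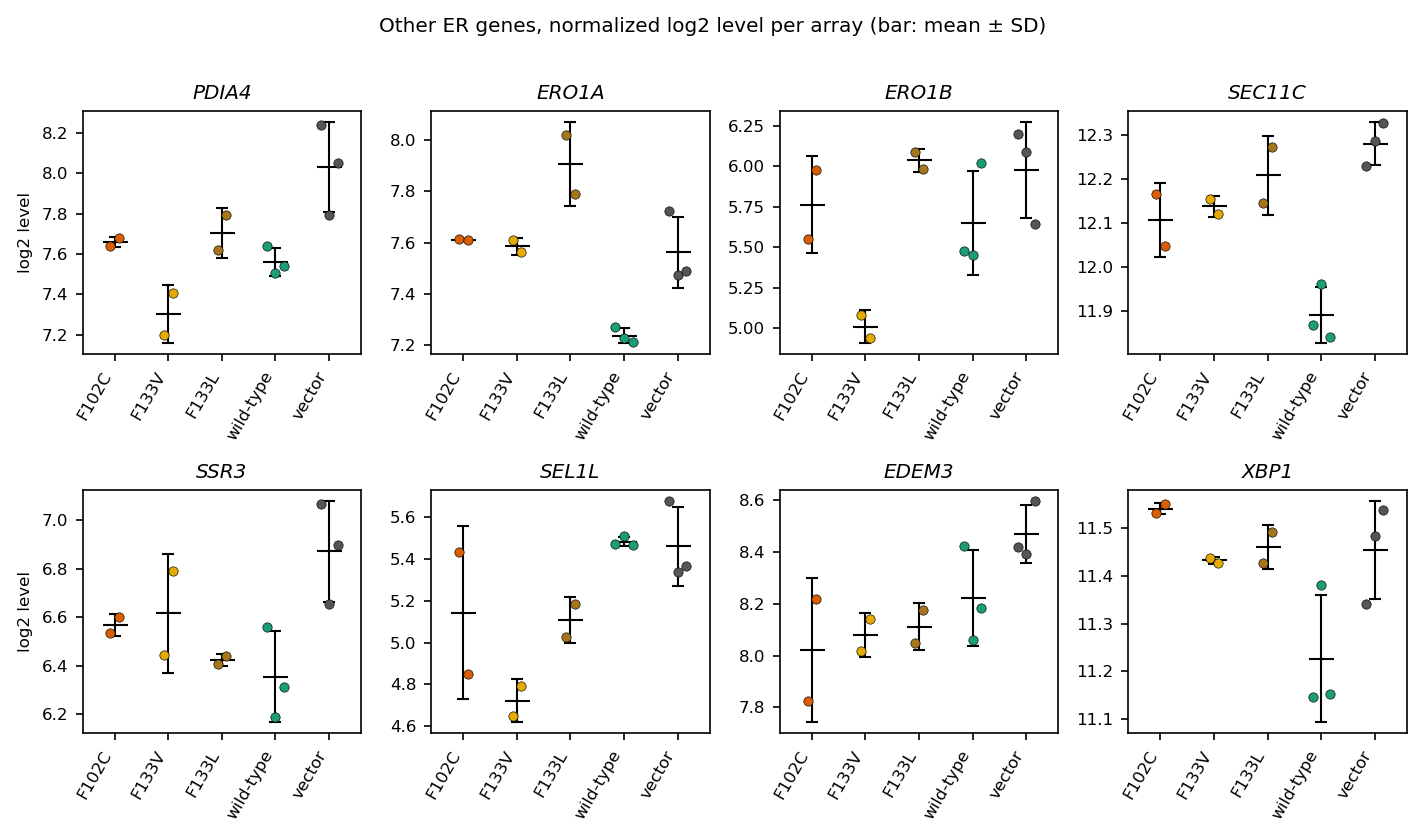
Normalized log2 level of 8 further ER genes on each of the 12 arrays, by construct, with group mean and SD (n = 2, 2, 2, 3 and 3); vertical scales differ between genes. ERO1A and SEC11C are lowest on the 3 wild-type SPOP arrays, and SEL1L and ERO1B on the SPOP F133V arrays, where their probes were not detected.

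The mutants were also set against wild-type SPOP singly (2 against 3 arrays). SPOP F102C gave 0 calls by limma among the 34 genes, against a background of 1.46% of all genes lower and 1.68% higher. At an unadjusted p under 0.05, 1 was lower and 5 higher, and the nearest to the threshold was HSPA5 at -0.48 (adjusted p = 0.0525). SPOP F133V gave 2 genes lower, 5.88% of 34, and 0 higher, against a background of 4.54% lower and 3.61% higher. These were HSPA5, with a difference of -0.62 ± 0.12 (SE; adjusted p = 0.0108), and SEL1L, given above as a bound (adjusted p = 0.0165). The HSPA5 difference ran from -0.64 to -0.036 over the alternatives and the fits without an array. Its call was lost in 2 of 11 alternatives (adjusted p up to 0.776). Both calls were lost without SPOP F133V array 1 and with the detected-probe covariate. SPOP F133L gave 1 gene higher and 0 lower, against a background of 3.23% higher and 3.32% lower. It was ERO1A, by 0.67 ± 0.11 (SE; adjusted p = 0.00506), and the call was lost without SPOP F133L array 1 (0.55) and with all-probe scaling (0.23; adjusted p = 0.139).

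Whether the mutants differed among themselves was tested with limma's F test, which called 0 of the 34 genes, against a background of 0.0245% of all genes. At an unadjusted p under 0.05 there were 4, namely HSPA5, ERO1B, PDIA4 and ERO1A. HSPA5 was higher with SPOP F133L than with SPOP F102C by 0.45 and than with SPOP F133V by 0.59 (F test adjusted p = 0.149). PDIA4 was higher with SPOP F133L than with SPOP F133V by 0.40 (adjusted p = 0.370). ERO1A had an adjusted p of 0.387. A call in 1 mutant and not in another is therefore not shown to be a difference between them.

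**Figure D4:**
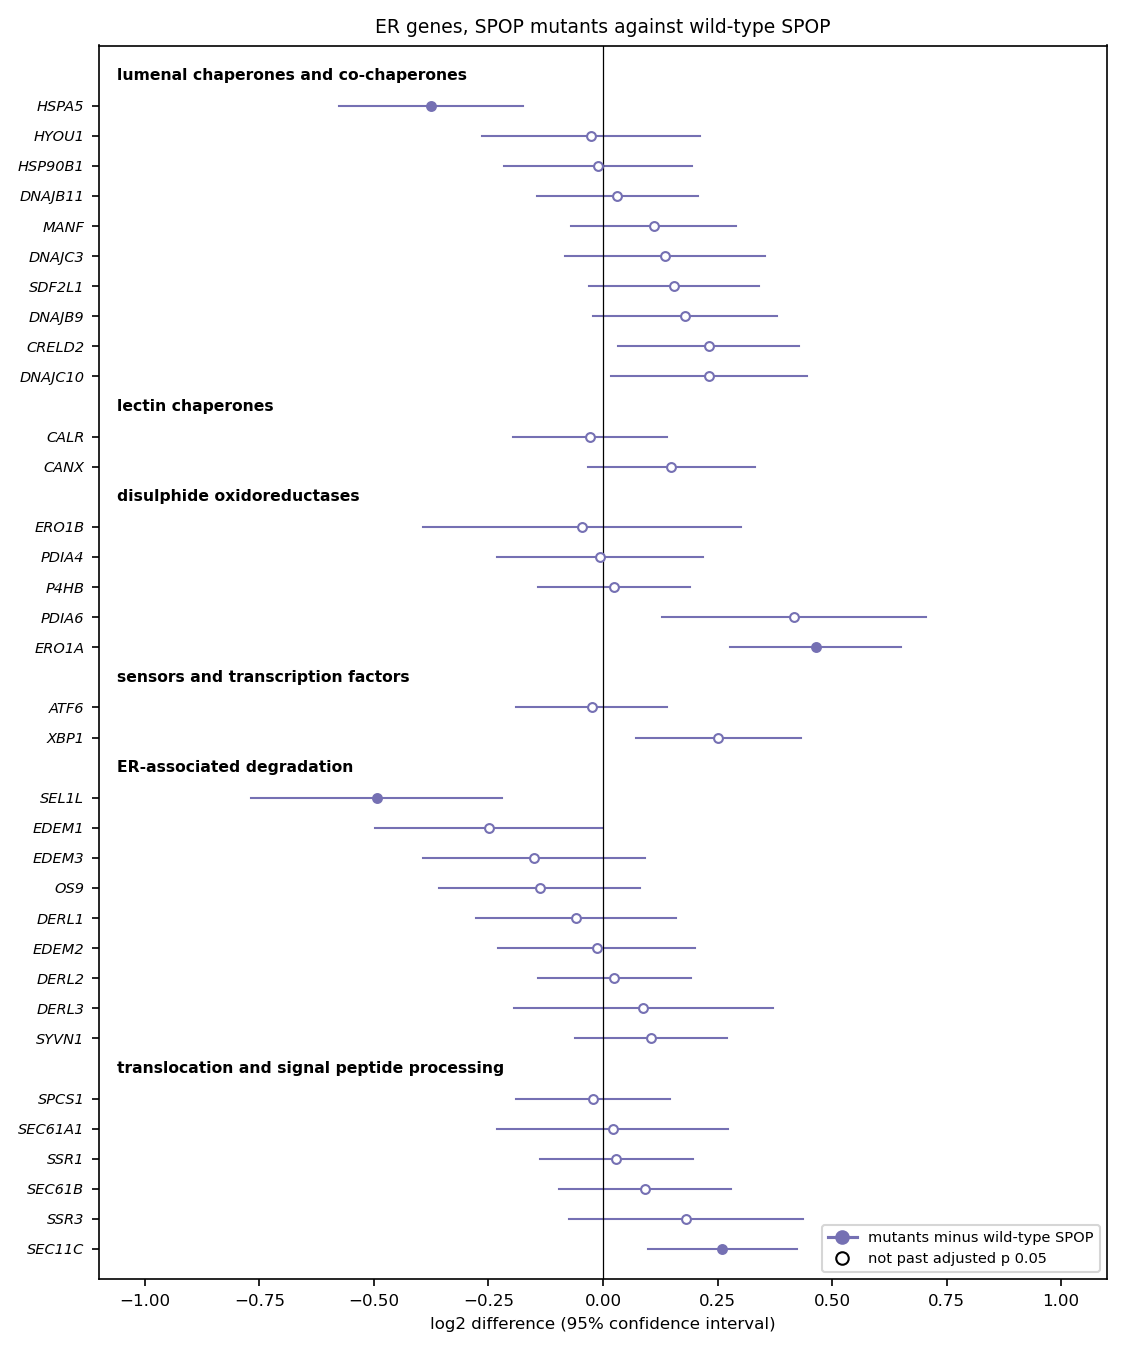
Log2 difference of the mutants (6 arrays, mean of the 3 groups) from wild-type SPOP (3 arrays) for the 34 genes, by role, with 95% confidence intervals; filled markers pass an adjusted p of 0.05. HSPA5 and SEL1L lie below 0 and ERO1A and SEC11C above it, and HSP90B1, HYOU1, PDIA4 and DNAJB11 lie within 0.05 of it.

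Other genes of the secretory pathway were called singly, in both directions. The shares of all genes called lower and higher, against which the called counts below are read, were 6.62% and 5.59% in mutants against control vector. They were 3.07% and 3.08% in wild-type SPOP cells against control vector, and 6.18% and 5.57% between mutants and wild-type SPOP. The median of all genes was -0.011 in mutants and 0.0011 with wild-type SPOP, both against control vector, and -0.015 between mutants and wild-type SPOP. These shares do not apply to the counts at an unadjusted p under 0.05, which are a description. Of 12 measured genes of the PERK and ATF4 arm, limma called 0 lower and 1 higher in mutants against control vector (median -0.12), 0 and 0 with wild-type SPOP against control vector (median -0.18), and 0 and 0 in mutants against wild-type SPOP (median 0.041), and at an unadjusted p under 0.05 the counts were 2 lower and 1 higher, 3 and 1, and 0 and 1. The call was NUPR1, a stress-induced chromatin protein, higher in mutants by 0.88 ± 0.16 (SE; adjusted p = 0.00435). Of 10 further sensors, activating proteases and factors of the CREB3 family there were 1 lower and 1 higher in mutants against control vector (median -0.045), 0 and 0 with wild-type SPOP against control vector (median -0.020), and 1 and 1 in mutants against wild-type SPOP (median -0.13), with 1 lower and 1 higher, 0 and 1, and 1 and 1 at an unadjusted p under 0.05. CREB3L4, an ER-anchored transcription factor found in prostate, was higher in mutants by 0.82 ± 0.10 (SE; adjusted p = 0.000443) against control vector and by 0.74 ± 0.10 (SE; adjusted p = 0.00130) against wild-type SPOP. MBTPS2, the protease that makes the second cut in ATF6, was lower, at -0.34 ± 0.089 (SE; adjusted p = 0.0285) and -0.32 ± 0.089 (SE; adjusted p = 0.0405) in the same comparisons.

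Among 33 other folding genes of the ER there were 1 lower and 2 higher in mutants against control vector (median 0.035), 1 and 0 with wild-type SPOP against control vector (median 0.017), and 1 and 1 in mutants against wild-type SPOP (median 0.0094). The counts at an unadjusted p under 0.05 were 6 lower and 5 higher, 3 and 2, and 2 and 4. FKBP11, a prolyl isomerase of secretory cells, was lower with wild-type SPOP than with control vector, at -0.63 ± 0.096 (SE; adjusted p = 0.00263) and higher in mutants than with wild-type SPOP by 0.44 ± 0.083 (SE; adjusted p = 0.00720). FKBP14, a related isomerase that acts on collagen, was lower in mutants, at -0.59 ± 0.11 (SE; adjusted p = 0.00580) against control vector and -0.52 ± 0.11 (SE; adjusted p = 0.0121) against wild-type SPOP. CNPY3, a co-chaperone of HSP90B1, and DNAJB12, a J-protein of the ER membrane, were higher in mutants than with control vector by 0.28 ± 0.076 (SE; adjusted p = 0.0349) and 0.42 ± 0.13 (SE; adjusted p = 0.0496). Among 27 other degradation genes there were 0 lower and 0 higher in mutants against control vector (median -0.020), 1 and 0 with wild-type SPOP against control vector (median 0.010), and 1 and 2 in mutants against wild-type SPOP (median -0.025), and at an unadjusted p under 0.05 1 lower and 5 higher, 5 and 2, and 3 and 3. UBE2J1, the ubiquitin-conjugating enzyme of the ER membrane, was lower with wild-type SPOP than with control vector, at -0.39 ± 0.098 (SE; adjusted p = 0.0368) and higher in mutants than with wild-type SPOP by 0.65 ± 0.085 (SE; adjusted p = 0.000797). AUP1, which recruits such an enzyme, was higher in mutants than with wild-type SPOP by 0.29 ± 0.080 (SE; adjusted p = 0.0401), and ERLIN2, a membrane scaffold of degradation, was lower, at -0.35 ± 0.089 (SE; adjusted p = 0.0284).

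Among 28 other translocation genes there were 0 lower and 1 higher in mutants against control vector (median -0.013), 1 and 1 with wild-type SPOP against control vector (median 0.045), and 0 and 0 in mutants against wild-type SPOP (median -0.023), and at an unadjusted p under 0.05 3 lower and 4 higher, 3 and 5, and 4 and 2. SRP14, a subunit of the signal recognition particle, was higher than with control vector by 0.44 ± 0.084 (SE; adjusted p = 0.00585) in mutants and 0.43 ± 0.097 (SE; adjusted p = 0.0236) with wild-type SPOP, and TRAM1, a membrane protein beside the channel, was lower with wild-type SPOP, at -0.35 ± 0.091 (SE; adjusted p = 0.0409). Among 28 genes of N-glycosylation there were 2 lower and 0 higher in mutants against control vector (median -0.035), 1 and 0 with wild-type SPOP against control vector (median -0.062), and 1 and 4 in mutants against wild-type SPOP (median 0.027). The counts at an unadjusted p under 0.05 were 3 lower and 3 higher, 5 and 0, and 1 and 6. MAGT1 and OSTC, subunits of the oligosaccharyltransferase, were lower in mutants than with control vector, at -0.39 ± 0.10 (SE; adjusted p = 0.0303) and -0.41 ± 0.11 (SE; adjusted p = 0.0277), and MAGT1 also than with wild-type SPOP, at -0.61 ± 0.10 (SE; adjusted p = 0.00350). DPAGT1 and ALG14, which take part in the first steps of glycan assembly, were higher in mutants than with wild-type SPOP by 0.32 ± 0.076 (SE; adjusted p = 0.0218) and 0.45 ± 0.11 (SE; adjusted p = 0.0226). UAP1, which makes the sugar donor UDP-GlcNAc, was lower with wild-type SPOP than with control vector, at -0.43 ± 0.10 (SE; adjusted p = 0.0301).

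Among 34 genes of transport between ER and Golgi there were 1 lower and 2 higher in mutants against control vector (median -0.024), 1 and 1 with wild-type SPOP against control vector (median 0.053), and 0 and 2 in mutants against wild-type SPOP (median -0.025). The counts at an unadjusted p under 0.05 were 2 lower and 5 higher, 3 and 4, and 4 and 4. The COPII coat subunit SEC24D was lower than with control vector, at -0.57 ± 0.080 (SE; adjusted p = 0.000919) in mutants and -0.43 ± 0.092 (SE; adjusted p = 0.0168) with wild-type SPOP, while the cargo receptor TMED10 was higher by 0.77 ± 0.13 (SE; adjusted p = 0.00310) and 0.75 ± 0.15 (SE; adjusted p = 0.0129). KDELR1, the receptor that returns escaped chaperones such as HSPA5 and HSP90B1 to the ER, was higher in mutants by 0.34 ± 0.092 (SE; adjusted p = 0.0356) against control vector and 0.34 ± 0.092 (SE; adjusted p = 0.0361) against wild-type SPOP. STX5, a Golgi fusion protein, was higher in mutants than with wild-type SPOP by 0.42 ± 0.12 (SE; adjusted p = 0.0380).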

How the data were processed

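Total RNA of 12 LNCaP-Abl cultures was labelled with biotin and hybridised to Illumina bead arrays with 47323 probes, per the labels' protocols. Per the file headers, the deposited non-normalized table gives each probe a linear bead intensity and its detection p-value on every array. The authors also deposited processed log2 values, with an equal median on each array, used here as an alternative. Per the submitters' processing notes the tool was lumi, with no version or settings that the labels state. The authors' background treatment before deposit is not given either.

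Here, neqc from limma 3.58.1 (R 4.3.3) corrected the intensities and brought arrays to the same quantiles (offset 16, negative controls inferred from detection p-values). Probes detected at p under 0.05 on at least 2 arrays were kept (23133), and the probe of highest mean stood for each gene. Gene symbols came from the platform annotation, with 1 symbol at 30113 probes, more than 1 at 8 and no symbol at 17202. Of the first, 30074 matched the RefSeq gene table of GRCh38.p14, used for names alone, and 0 symbols changed. limma's lmFit and eBayes fitted 5 group means over the 12 arrays (7 residual and 4.67 prior degrees of freedom), and p-values were adjusted by Benjamini-Hochberg over all 12227 genes. The script was tested on simulated data. The number of arrays limits the precision.

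Values on every array are given for each gene called in any of the 7 tests and for HSPA5, HSP90B1, XBP1 and ATF6; genes of other pathway lists are named as up to 3 of lowest p per list among those called. The genes and lists were chosen with earlier results of these data known. A gene's promoter is the window of the RefSeq-derived table with most matches to the searched motif; 33 of the 37 genes had one, and PDIA3, DERL1, DERL3 and SPCS1 had none. Alternatives covered background correction and scaling, the authors' values, the filter on dim probes, the choice of probe, the variance trend, a covariate, the arrays in the fit, a replicate block and leaving out each array.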

Additional observations from a re-analysis of the deposited data

How the results depend on the processing

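Counts of called ER genes kept their direction in all alternatives run for wild-type SPOP against control vector (all lower), and their number changed. The 10 calls there became 1 with the number of detected probes as a covariate, 6 with the 2 groups alone in the fit and 5 with the replicate block, and 3 to 10 without 1 array. The 9 calls of mutants against control vector became 32 (all lower) with all-probe scaling, 15 (13 lower, 2 higher) with common-probe scaling, 0 with the covariate and 6 with the replicate block, and 4 to 10 without 1 array. The 4 calls of mutants against wild-type SPOP became 14 and 7 with the same 2 scalings, 7 with a variance trend, 1 with the covariate and 1 with the replicate block, and 1 to 4 without 1 array. For SPOP F102C the 0 calls became 1 with common-probe scaling, 2 in the authors' deposited log2 values, 2 with probes detected on all 12 arrays, 1 with the mean of probes and 1 with a trend, and 0 to 1 without 1 array. For SPOP F133V the 2 calls became 26 and 5 with the 2 scalings, 5 with a trend and 0 with the covariate, and 0 to 3 without 1 array. For SPOP F133L the 1 call became 2 with normexp, 3 with common-probe scaling, 2 in the authors' values, 2 with probes detected on all 12 arrays and 2 with a trend, and 0 to 1 without 1 array. The F test called 1 with all-probe scaling, and 0 with each array left out in turn. The cause of these changes was not tested. Fewer arrays, or an added covariate or block, also leave fewer degrees of freedom, and the part of that was not tested either. The number of detected probes went in part with the construct, so that covariate cannot be fully told apart from it. These 2 scalings moved the median of all genes to -0.23 and 0.12 in mutants against control vector, -0.16 and 0.11 in mutants against wild-type SPOP, and -0.28 and 0.15 for SPOP F133V against wild-type SPOP. The share of lower among all called genes for wild-type SPOP against control vector was 80.9% with all-probe scaling, against 49.9% as reported. With all-probe and common-probe scaling it was 98.6% and 22.6% for mutants against control vector (54.2% as reported), and 97.8% and 20.8% for mutants against wild-type SPOP (52.6% as reported). Direction turned for SEL1L with common-probe scaling, to 0.075 in mutants against wild-type SPOP, 0.15 against control vector and 0.16 for SPOP F133V against wild-type SPOP, and for SEC11C with all-probe scaling, to -0.012 in mutants against wild-type SPOP. The differences of the dim probes of HSPA5, SEL1L, DNAJC3 and SSR3 were smaller in the authors' deposited log2 values.

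The replicate numbers in the titles did not show a pairing of the arrays. Same-numbered arrays of different groups correlated at -0.060 to 0.041 after removal of group means (21 pairs, median -0.011). The wild-type SPOP and control vector pairs were at -0.059, 0.039 and -0.057, and 5 of 12 arrays correlated best with one of their own number. In a group of 2 arrays the deviations from the mean mirror each other, so many of these correlations are not independent and a pairing is not excluded. The chip as a block was not run, since the file headers give no chip.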

Other observations

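Chaperones outside the ER were read on the same arrays. Of all genes, 6.62% were called lower and 5.59% higher in mutants against control vector. The shares were 3.07% and 3.08% in wild-type SPOP cells against control vector, and 6.18% and 5.57% in mutants against wild-type SPOP. They do not apply to the counts at an unadjusted p under 0.05. Of 23 measured genes of the cytosolic heat shock system there were 4 lower and 0 higher in mutants against control vector (median -0.077), 2 and 0 with wild-type SPOP against control vector (median -0.048), and 2 and 0 in mutants against wild-type SPOP (median -0.082), and at an unadjusted p under 0.05 5 lower and 0 higher, 3 and 2, and 4 and 0. DNAJB4, a cytosolic J-protein, was lower than with control vector, at -1.13 ± 0.12 (SE; adjusted p = 0.000106) in mutants and -0.67 ± 0.13 (SE; adjusted p = 0.0129) with wild-type SPOP, and in mutants also lower than with wild-type SPOP, at -0.46 ± 0.12 (SE; adjusted p = 0.0276). CHORDC1, a co-chaperone of cytosolic Hsp90, was lower than with control vector, at -0.85 ± 0.12 (SE; adjusted p = 0.000782) in mutants and -0.61 ± 0.14 (SE; adjusted p = 0.0202) with wild-type SPOP. HSPA4L, an Hsp110-family protein, was lower in mutants, at -0.47 ± 0.080 (SE; adjusted p = 0.00328) against control vector and -0.63 ± 0.080 (SE; adjusted p = 0.000681) against wild-type SPOP.

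Of 13 mitochondrial chaperones and prohibitins there were 0 lower and 0 higher in mutants against control vector (median -0.046), 0 and 0 with wild-type SPOP against control vector (median -0.11), and 0 and 1 in mutants against wild-type SPOP (median 0.11), and at an unadjusted p under 0.05 1 lower and 0 higher, 6 and 0, and 0 and 4. The call was PHB2, a prohibitin of the inner membrane, higher in mutants than with wild-type SPOP by 0.28 ± 0.083 (SE; adjusted p = 0.0487). With wild-type SPOP against control vector, 12 of the 13 genes were below 0 and 1 above. Arrays of these 2 groups did not overlap for 6 genes lower and 0 higher with wild-type SPOP. Differences below 0 in that comparison were thus not confined to the ER genes.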
